A study of Mus musculus with 2 samples.

Results

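The genes described here encode the nuclear-encoded subunits of the mitochondrial respiratory chain and of ATP synthase, together with the complex I assembly factors that carry the Nduf name. The rule reads symbols and no measured value, and takes protein-coding genes whose GENCODE M21 symbol begins with Nduf, Uqcr, Cox4 to Cox8 or Atp5, or is Sdha, Sdhb, Sdhc or Sdhd. The rule found 93 of the 51840 genes in the deposited table, made up of 46 genes named for complex I, 4 for complex II, 8 for complex III, 18 for complex IV and 17 for complex V. A gene was called expressed when its mean FPKM over both libraries was at least 1, and 89 of the 93 were. The 4 others, Cox6b2, Cox7b2, Cox8b and Cox8c, were listed at 0 in both libraries.

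The samples were a line labelled Lig4-/- CH12F3 and its reference, CH12F3 itself, which are mouse lymphoma B cells known for antibody class switching in culture. The gene named in the label, Lig4, codes for the DNA ligase that seals breaks in nonhomologous end joining. Both were kept in RPMI medium with serum, with no treatment named, and each gave 1 library, so there is no spread between replicates, no test and no p-value, and every difference is a description of 2 libraries. The labels do not say how the Lig4-/- line was made or whether it is 1 clone.

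Values are FPKM, fragments corrected for the length of the transcript and the size of the library. Levels of different genes are compared on this scale only roughly. The sources used here state no correction for GC content or for sequence shared between genes. The depth of the libraries is unknown. Lig4 itself was listed at 0.64 FPKM in the library labelled Lig4-/- and at 0.13 FPKM in the CH12F3 library, so the targeted gene did not check the label and all directions rest on it. All 8 B cell markers examined were expressed, whereas the 3 NK cell markers were listed at 0 in both libraries and the 6 T cell markers summed to 7.49 FPKM in the library labelled Lig4-/- and 10.5 FPKM in CH12F3. Myeloid markers summed to 31.5 FPKM in the library labelled Lig4-/- and 46.3 FPKM in CH12F3, most of it Cd68 (21.7 FPKM in the library labelled Lig4-/- and 41.1 FPKM in CH12F3), while Lyz2, Csf1r and Itgam were higher in the library labelled Lig4-/-, and their part in the members' values was not tested. Of 3 erythroid markers Hba-a1 alone was expressed, at 23.55 FPKM in the library labelled Lig4-/- and 30.47 FPKM in CH12F3. None of 4 fibroblast markers was expressed. In such bulk RNA, fewer cells expressing a gene and less RNA per cell cannot be told apart.

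The respiratory chain passes electrons from NADH (complex I) and succinate (complex II) through ubiquinone, complex III and cytochrome c to oxygen at complex IV. Complexes I, III and IV pump protons across the inner mitochondrial membrane, and complex V, the ATP synthase, lets them return and makes ATP. All but complex II are built from both nuclear and mitochondrial genes, and nuclear respiratory factors such as NRF1 and the ETS factor GABP are known to act at many of the nuclear promoters. Activated and proliferating B cells are known to use both glycolysis and oxidative phosphorylation.

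Most of these genes were abundant in both libraries. The median FPKM of the 89 expressed members was 237 in the library labelled Lig4-/- and 252 in CH12F3, against 14.6 and 11.1 FPKM over all 11437 expressed genes. The members together held 3.41% of all FPKM in the library labelled Lig4-/- and 3.68% in CH12F3, and their summed FPKM in the first was 0.874 times that in the second. Atp5b, the catalytic beta subunit of ATP synthase, ranked first among the members in both libraries, at 3640.4 FPKM in the library labelled Lig4-/- and 4731 FPKM in CH12F3. Cox4i1, the general form of the largest nuclear subunit of complex IV, ranked second in both, at 1496 FPKM in the library labelled Lig4-/- and 2520.4 FPKM in CH12F3. Across the 89 members, which share their libraries and are not replicates, Spearman's rho of the FPKM in one library with that in the other was 0.93, beside 0.89 over all expressed genes.

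**Figure D1:**
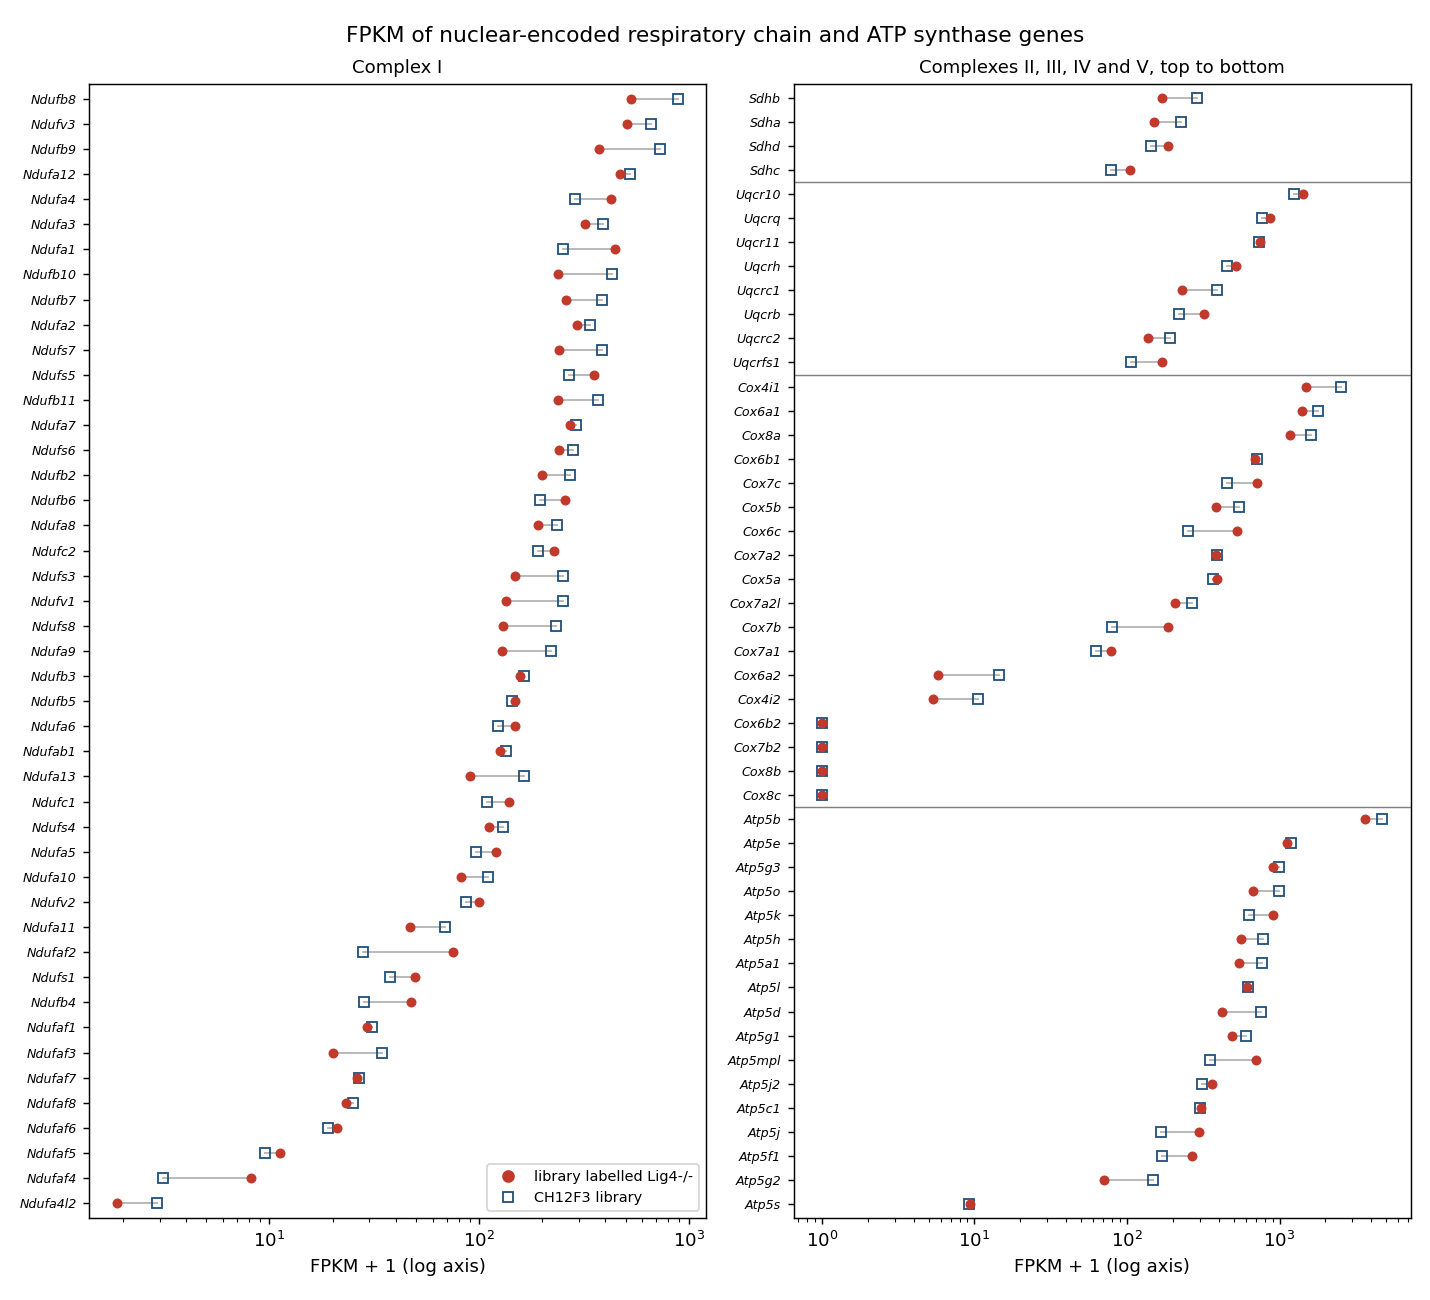
FPKM + 1 on a log axis for the genes named on the vertical axis, with the library labelled Lig4-/- as filled circles and CH12F3 as open squares, sorted by mean FPKM within complexes. The levels of one complex span wide ranges, and 4 tissue isoforms of complex IV sit at 0 FPKM in both libraries.

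On the log2 ratio, log2 of (FPKM in the library labelled Lig4-/- + 1) over (FPKM in CH12F3 + 1), 5 of the 89 members (5.62%) stood 2-fold or more above CH12F3 and 2 (2.25%) stood 2-fold or more below it. Among all 11437 expressed genes those shares were 21.0% above and 4.09% below. The median log2 ratio of the members was -0.09, with the middle 50% between -0.57 and 0.28, beside 0.17 and a middle 50% between -0.34 and 0.86 for all expressed genes. Of the members, 53 (59.6%) lay below 0, compared with 41.7% of all expressed genes. Abundant genes as a whole gave a similar median and share below 0. A mean of at least 100 FPKM, a level chosen after the data were seen, was reached by 1239 genes. Their median was -0.24 and 62.6% lay below 0, and for the 70 members among them these were -0.18 and 62.9%. Of the 1239 genes 7.10% stood 2-fold or more above CH12F3 and 6.86% below it, beside 3 and 1 of the 70 members.

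Transcript base composition moved with these ratios. Across all expressed genes the log2 ratio was lower at higher GC content of the longest annotated transcript (Spearman's rho -0.64), and across the 89 members rho was -0.53, a description of genes that share both libraries. The 44 members above the members' median GC content of 50.02% had a median log2 ratio of -0.45, with 33 below 0, and the 45 at or below it had a median of 0.10, with 20 below 0. A smooth curve of log2 ratio on GC content, fitted to 11404 expressed genes, was therefore subtracted to give a GC-adjusted log2 ratio. After it the members' median was -0.37, with 65 of 89 below 0 (73.0%), beside -0.01 and 50.8% for all expressed genes and -0.29 and 70.9% for the 1239 abundant ones. After adjustment 2 members (2.25%) stood past 2-fold on the higher side and 10 (11.2%) on the lower, beside 5.75% and 5.98% of all expressed genes. Among the 1239 abundant genes these shares were 2.18% and 9.04%, beside 1 and 8 of the 70 members among them. Adjusted values of single genes depend on which sequence gives the GC content. With the coding sequence in place of the longest transcript, Cox5a went from -1.06 to -0.05 and Atp5j from 0.72 to -0.43. Ndufa9 hardly moved, from -1.16 to -1.14. With 1 library a line, a difference in how libraries captured GC-rich transcripts and a difference between the lines cannot be told apart.

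**Figure D2:**
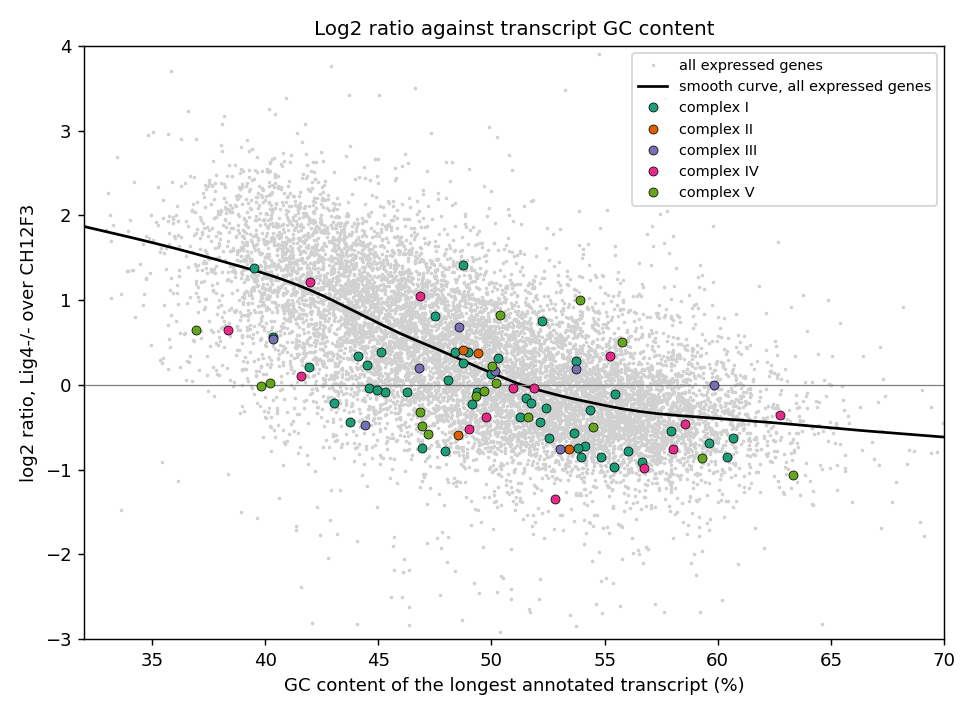
Log2 ratio of the library labelled Lig4-/- over CH12F3 against GC content of the longest annotated transcript, in percent, with the 89 expressed members coloured by complex over all expressed genes in grey and their smooth curve in black. Most members lie under the curve, and those with low GC content have the higher ratios.

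The genes past 2-fold on this scale were a pair of assembly factors, small subunits of complexes IV and V, a muscle isoform and a c-ring gene. The added 1 FPKM kept Cox4i2 and Ndufa4l2 inside it, although their FPKM in CH12F3 was 2.20 and 2.16 times that in the library labelled Lig4-/-. Ndufaf2, a chaperone of the last steps of complex I assembly and a paralogue of the subunit Ndufa12, was at 73.9 FPKM in the library labelled Lig4-/- and 27.0 FPKM in CH12F3, the highest log2 ratio of all members (1.42, GC-adjusted 1.13). Ndufaf4, another complex I assembly factor, was at 7.14 FPKM in the library labelled Lig4-/- and 2.12 FPKM in CH12F3 (1.38). Its transcript is poor in G and C, at 39.5%, and its GC-adjusted value was 0.03.

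Cox7b, an X-linked small subunit of complex IV, was at 184 FPKM in the library labelled Lig4-/- and 78.7 FPKM in CH12F3 (log2 ratio 1.22, GC-adjusted 0.09). Cox6c, another small membrane subunit of complex IV, was at 523 FPKM in the library labelled Lig4-/- and 252 FPKM in CH12F3 (1.05, GC-adjusted 0.54). Atp5mpl, a small proteolipid of the membrane part of ATP synthase, was at 700.4 FPKM in the library labelled Lig4-/- and 348 FPKM in CH12F3, just past 2-fold (1.01, GC-adjusted 1.19). Only Ndufaf2 and Atp5mpl were 2-fold higher both before and after GC adjustment, and with the GC content of the coding sequence alone in place of the whole transcript neither was, at 0.79 and -0.23.

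On the other side, Cox6a2, the heart and skeletal muscle form of a complex IV subunit, was at 4.73 FPKM in the library labelled Lig4-/- and 13.6 FPKM in CH12F3, the lowest log2 ratio of all members (-1.35, GC-adjusted -1.24). Atp5g2, which encodes the c subunit of the ATP synthase rotor ring, was at 69.8 FPKM in the library labelled Lig4-/- and 147 FPKM in CH12F3 (-1.06, GC-adjusted -0.60).

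**Figure D3:**
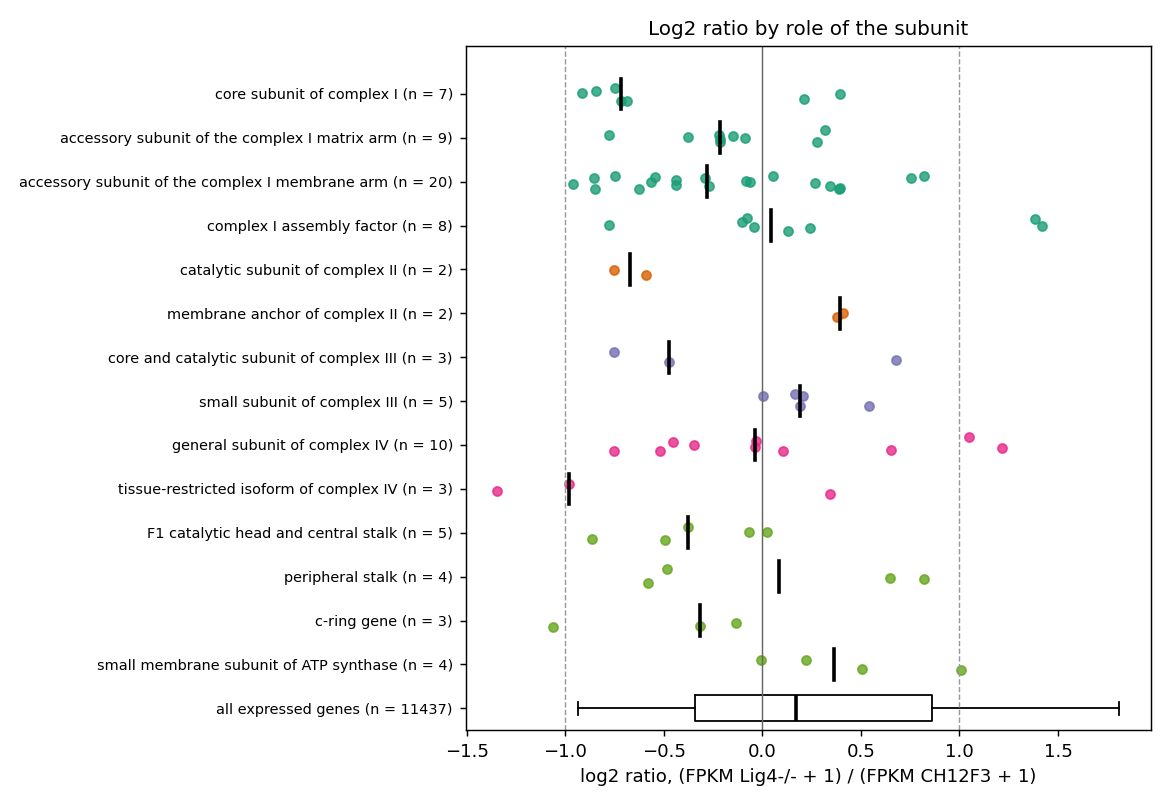
Log2 ratio of expressed members by role, coloured by complex, with a black bar at each median and dashed lines at 2-fold. Ndufa4, Ndufa4l2, Cox7a2l and Atp5s, each alone in its role, are not drawn. The box gives the median and middle 50% of all expressed genes, with whiskers from the 5th to the 95th percentile. Core subunits of complex I and the catalytic subunits of complex II lie mostly to the left of 0, and small subunits of complexes III and V to the right.

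The c-ring genes share sequence with each other and with a pseudogene. Mammals build the ring from 1 mature protein encoded by 3 genes, Atp5g1, Atp5g2 and Atp5g3, whose products differ in the import signal that is removed. Over the last 225 coding bases, which encode the mature subunit, Atp5g1 differed from Atp5g2 at 34 bases and Atp5g3 at 48, with 0 amino acid differences in either. Gm10175, a transcribed processed pseudogene on chromosome 7 (positions 23946646 to 23947290, minus strand, GENCODE M21 on GRCm38), holds the whole coding sequence of Atp5g2 (chromosome 15, positions 102662864 to 102672352, minus strand) with no difference. The first 120 of these 225 bases are shown 5′ to 3′ from the GENCODE M21 transcripts, with capitals at bases that differ from Atp5g2, because they show which reads can be told apart.
Atp5g2: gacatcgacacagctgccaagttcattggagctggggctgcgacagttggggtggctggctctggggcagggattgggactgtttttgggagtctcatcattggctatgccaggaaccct
Gm10175: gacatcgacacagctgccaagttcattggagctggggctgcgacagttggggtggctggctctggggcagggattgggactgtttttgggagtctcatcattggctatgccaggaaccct
Atp5g1: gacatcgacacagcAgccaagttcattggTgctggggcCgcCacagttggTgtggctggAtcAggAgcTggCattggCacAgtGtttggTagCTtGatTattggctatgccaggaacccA
Atp5g3: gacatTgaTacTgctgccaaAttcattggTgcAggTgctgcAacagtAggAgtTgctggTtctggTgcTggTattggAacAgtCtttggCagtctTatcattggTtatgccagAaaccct

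Gm10175 was listed at 618 FPKM in the library labelled Lig4-/- and at 2077 FPKM in CH12F3 (log2 ratio -1.75), far above Atp5g2 in both. Atp5g3 was at 907 FPKM in the library labelled Lig4-/- and 997 FPKM in CH12F3 (-0.14, GC-adjusted -0.36), and Atp5g1 at 487 FPKM in the library labelled Lig4-/- and 607 FPKM in CH12F3 (-0.32, GC-adjusted -0.83). Of the FPKM of the 3 genes, Atp5g2 held 4.77% in the library labelled Lig4-/- and 8.39% in CH12F3. With its copies added, Atp5g2 held 33.0% in the library labelled Lig4-/- and 58.1% in CH12F3, and its log2 ratio was -1.69. Fragments of the shared sequence could have been assigned to either locus, and the sources used here do not give the authors' handling of multiply mapped reads, so these values are uncertain.

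Other members had near-identical copies too. Of the 93 members, 21 had at least 1 copy among annotated transcripts of other genes, with 95% identity over at least 50% of the coding sequence. There were 38 copies, 36 of them pseudogenes, of which 24 were listed at 0 in both libraries and 8, belonging to 4 members, reached 1 FPKM in a library. Ndufb4, an accessory subunit of the complex I membrane arm, was at 46.5 FPKM in the library labelled Lig4-/- and 27.1 FPKM in CH12F3 (log2 ratio 0.76), and its pseudogene Ndufb4c, with an identical coding sequence, at 239 FPKM in the library labelled Lig4-/- and 242 FPKM in CH12F3. Their sum gave a log2 ratio of 0.08. Cox7c, a small subunit of complex IV, was at 707 FPKM in the library labelled Lig4-/- and 449 FPKM in CH12F3 (log2 ratio 0.65, GC-adjusted -0.79). Its identical copy Gm12338 was at 570.1 FPKM in the library labelled Lig4-/- and 364 FPKM in CH12F3 (0.64). Atp5l, the g subunit of ATP synthase, was at 615 FPKM in the library labelled Lig4-/- and 618 FPKM in CH12F3 (log2 ratio -0.01). Its GC-adjusted value, -1.34, was the lowest of all members. With the GC content of the coding sequence in place of the whole transcript it was -0.59, and Atp5s was lower, at -1.41. The identical copy of Atp5l, Gm10221, was at 255 FPKM in the library labelled Lig4-/- and 289 FPKM in CH12F3.

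**Figure D4:**
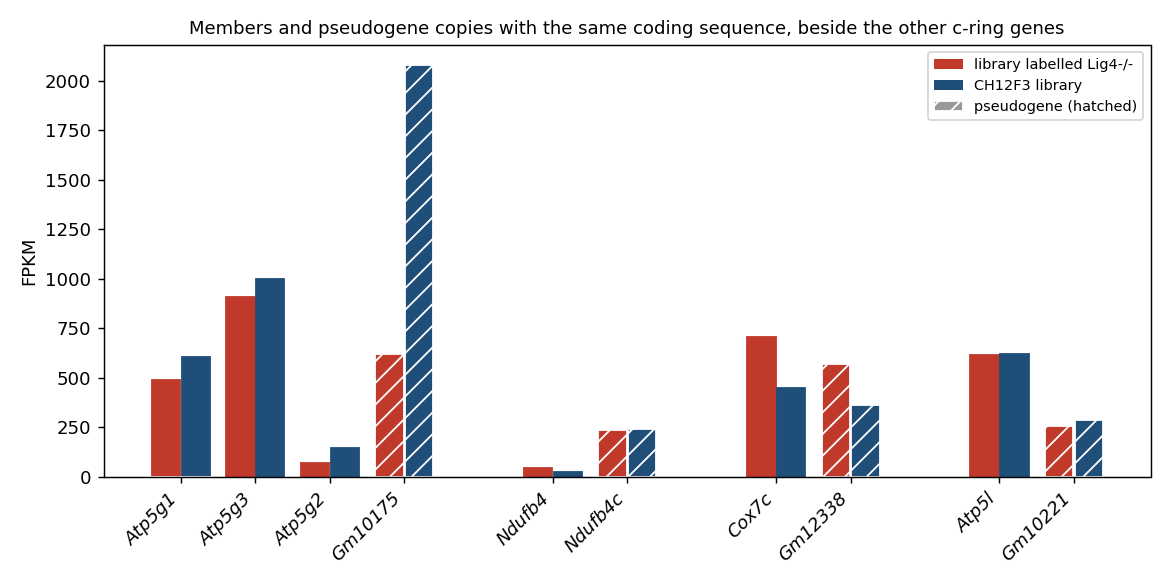
FPKM of members and of pseudogenes with an identical coding sequence (hatched), with the library labelled Lig4-/- left of CH12F3 in each pair of bars. Gm10175 reaches 2077 FPKM in CH12F3 and 618 FPKM in the library labelled Lig4-/-, and Ndufb4c stands above Ndufb4 in both.

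Complex I takes electrons from NADH through a matrix arm of flavin and iron-sulfur subunits. Of its 7 nuclear-encoded core subunits 5 were lower in the library labelled Lig4-/-, all within 2-fold. Ndufv1, which binds FMN and oxidises NADH, was at 133 FPKM in the library labelled Lig4-/- and 251 FPKM in CH12F3 (log2 ratio -0.91). Ndufs8, an iron-sulfur subunit, was at 129 FPKM in the library labelled Lig4-/- and 232 FPKM in CH12F3 (-0.85), and Ndufs3, a core subunit of the matrix arm, at 148 FPKM in the library labelled Lig4-/- and 249 FPKM in CH12F3 (-0.75). All 3 were lower in the library labelled Lig4-/-. Ndufs7, near the ubiquinone site, was at 239 FPKM in the library labelled Lig4-/- and 385 FPKM in CH12F3 (-0.69). Ndufs1, the largest iron-sulfur subunit, went the other way, at 48.4 FPKM in the library labelled Lig4-/- and 36.6 FPKM in CH12F3 (0.39), and so did Ndufv2, which carries an iron-sulfur cluster beside Ndufv1, at 98.6 FPKM in the library labelled Lig4-/- and 85.2 FPKM in CH12F3 (0.21). These 2 have the lowest transcript GC content of the 7, at 45.1% and 42.0%. After GC adjustment all 7 lay below 0, between -0.91 for Ndufv2 and -0.30 for Ndufs7.

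The accessory subunits of complex I, which stabilise and complete the enzyme, spread to both sides. In the matrix arm 7 of 9 lay below 0 (median -0.21), from Ndufa9, next to the ubiquinone site, at 127 FPKM in the library labelled Lig4-/- and 219 FPKM in CH12F3 (-0.78, GC-adjusted -1.16) to Ndufa5, at 119 FPKM in the library labelled Lig4-/- and 95.1 FPKM in CH12F3 (0.32, GC-adjusted 0.21). Ndufs4, whose loss in mice gives a model of Leigh syndrome, was at 111 FPKM in the library labelled Lig4-/- and 129 FPKM in CH12F3 (-0.21, GC-adjusted -1.20). Ndufv3, among the most abundant complex I transcripts, was at 508 FPKM in the library labelled Lig4-/- and 660 FPKM in CH12F3 (-0.38, GC-adjusted -0.39). The 5 others of the matrix arm, Ndufs6, Ndufa2, Ndufa6, Ndufa7 and Ndufa12, had log2 ratios between -0.22 and 0.28.

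In the membrane arm 13 of 20 accessory subunits lay below 0 (median -0.28). Ndufb9, at 371 FPKM in the library labelled Lig4-/- and 724 FPKM in CH12F3, had the lowest log2 ratio of the complex, just inside 2-fold (-0.96, GC-adjusted -0.70). Ndufb10, at 237 FPKM in the library labelled Lig4-/- and 427 FPKM in CH12F3, and Ndufa13, also known as Grim19, at 89.1 FPKM in the library labelled Lig4-/- and 162 FPKM in CH12F3, both had log2 ratios of -0.85. Ndufb8, the most abundant complex I transcript, was at 526 FPKM in the library labelled Lig4-/- and 885 FPKM in CH12F3 (-0.75, GC-adjusted -1.25). At the upper end stood Ndufa1, an X-linked subunit, at 443 FPKM in the library labelled Lig4-/- and 251 FPKM in CH12F3 (0.82, GC-adjusted 0.38), ahead of Ndufb4. Ndufab1, the mitochondrial acyl carrier protein, was nearly level at 125 FPKM in the library labelled Lig4-/- and 133 FPKM in CH12F3 (-0.08, GC-adjusted -0.78). The 13 remaining members of the arm had log2 ratios between -0.63 and 0.39.

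The 8 Ndufaf assembly factors, which chaperone complex I and leave it, were far less abundant, with a median of 21.1 FPKM in the library labelled Lig4-/- and 24.9 FPKM in CH12F3. Beside Ndufaf2 and Ndufaf4 the list ran from Ndufaf3, the partner of Ndufaf4, at 19.1 FPKM in the library labelled Lig4-/- and 33.4 FPKM in CH12F3 (-0.78), to Ndufaf5, at 10.3 FPKM in the library labelled Lig4-/- and 8.54 FPKM in CH12F3 (0.24). Ndufaf3 and Ndufaf4, known to act together, lay on opposite sides of 0. Ndufaf1, Ndufaf6, Ndufaf7 and Ndufaf8 lay between -0.10 and 0.13.

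Complex II, succinate dehydrogenase, is encoded by 4 nuclear genes alone and split by role. Sdha, the flavoprotein that oxidises succinate, was at 149 FPKM in the library labelled Lig4-/- and 225 FPKM in CH12F3 (log2 ratio -0.59, GC-adjusted -0.91). Sdhb, the iron-sulfur subunit, was at 170 FPKM in the library labelled Lig4-/- and 287 FPKM in CH12F3 (-0.75, GC-adjusted -0.60). The membrane anchors were higher in the library labelled Lig4-/-, with Sdhc at 104 FPKM in the library labelled Lig4-/- and 77.7 FPKM in CH12F3 (0.41, GC-adjusted 0.12) and Sdhd at 186 FPKM in the library labelled Lig4-/- and 143 FPKM in CH12F3 (0.38, GC-adjusted 0.17). All 4 were within 2-fold, and the signs were the same after GC adjustment.

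Complex III, the cytochrome bc1 complex, had the highest median of the 5 complexes (0.18, with 6 of 8 above 0). Its core proteins Uqcrc1, at 229 FPKM in the library labelled Lig4-/- and 386 FPKM in CH12F3 (-0.75, GC-adjusted -0.63), and Uqcrc2, at 137 FPKM in the library labelled Lig4-/- and 190.2 FPKM in CH12F3 (-0.47, GC-adjusted -1.28), were lower. Uqcrfs1, the Rieske iron-sulfur protein that passes electrons to cytochrome c1, was at 168 FPKM in the library labelled Lig4-/- and 104 FPKM in CH12F3 (0.68, GC-adjusted 0.37). The 5 small subunits all had log2 ratios above 0. Uqcrb was at 319 FPKM in the library labelled Lig4-/- and 219 FPKM in CH12F3 (0.54, GC-adjusted -0.74), Uqcrh at 519.7 FPKM in the library labelled Lig4-/- and 451 FPKM in CH12F3 (0.21), and Uqcr10, the most abundant, at 1419.9 FPKM in the library labelled Lig4-/- and 1243 FPKM in CH12F3 (0.19). Uqcrq (865 and 772 FPKM) and Uqcr11 (739 and 738 FPKM) were closest to level, at 0.16 and 0.00. After GC adjustment the median of the complex was -0.13.

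Complex IV, cytochrome c oxidase, reduces oxygen, and its nuclear subunits surround a mitochondrially encoded core. Of the 10 general subunits 6 lay below 0 (median -0.04), among them the 3 most abundant. Beside Cox4i1 (-0.75, GC-adjusted -0.40), Cox6a1 was at 1403 FPKM in the library labelled Lig4-/- and 1787 FPKM in CH12F3 (-0.35, GC-adjusted 0.10), and Cox8a at 1175 FPKM in the library labelled Lig4-/- and 1612 FPKM in CH12F3 (-0.46, GC-adjusted -0.09). Cox5b, which binds zinc, was at 380.1 FPKM in the library labelled Lig4-/- and 546 FPKM in CH12F3 (-0.52). Cox6b1, which faces the intermembrane space, Cox7a2 and Cox5a were nearly level before GC adjustment, with log2 ratios of -0.03, -0.04 and 0.10. After it they were at -0.07, 0.01 and -1.06. The 3 highest before GC adjustment were Cox7b, Cox6c and Cox7c. Ndufa4, which carries a complex I name but is known as a subunit of complex IV, was at 422 FPKM in the library labelled Lig4-/- and 285 FPKM in CH12F3 (0.56, GC-adjusted -0.72).

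Several complex IV subunits have a second gene used in muscle, lung, testis or hypoxia. The general form held at least 99.2% of the FPKM of its pair in both libraries for Cox4, Cox6a and Ndufa4, and all of it for Cox6b, Cox7b and Cox8. Cox4i2, the lung and hypoxia form of Cox4, was at 4.37 FPKM in the library labelled Lig4-/- and 9.60 FPKM in CH12F3 (-0.98, GC-adjusted -0.66), which is 0.291% and 0.379% of the Cox4 pair. Cox6a2 made up 0.336% of the Cox6a pair in the library labelled Lig4-/- and 0.755% in CH12F3. Ndufa4l2, known as a hypoxia-induced relative of Ndufa4, was at 0.88 FPKM in the library labelled Lig4-/- and 1.90 FPKM in CH12F3 (-0.63, GC-adjusted -0.22). These 3 minor forms were all lower in the library labelled Lig4-/-.

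Cox7a1, the heart and muscle form of Cox7a, was the exception among the minor forms, at 78.1 FPKM in the library labelled Lig4-/- and 61.3 FPKM in CH12F3 (0.35, GC-adjusted 0.60). It held 11.8% of the FPKM of the Cox7a family in the library labelled Lig4-/- and 8.53% in CH12F3, beside 57.3% and 54.3% for Cox7a2. Cox7a2l, which helps join complexes III and IV into supercomplexes, held the remaining 30.9% in the library labelled Lig4-/- and 37.2% in CH12F3, at 205 FPKM in the library labelled Lig4-/- and 267 FPKM in CH12F3 (-0.38). Of 6 muscle markers, Tnnt2 alone was expressed, at 22.1 FPKM in the library labelled Lig4-/- and 49.6 FPKM in CH12F3, and Myh7 was listed at 0 in both. Summed, the 6 markers gave 22.6 FPKM in the library labelled Lig4-/- and 50.9 FPKM in CH12F3. Their part in the values of Cox6a2 and Cox7a1 was not tested.

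Complex V consists of a catalytic head on a rotating stalk, a peripheral stalk that holds it still, and a membrane part with the c-ring. In the head and central stalk 4 of 5 genes lay below 0 (median -0.38). Beside Atp5b (-0.38, GC-adjusted -0.35), the alpha subunit Atp5a1 was at 546 FPKM in the library labelled Lig4-/- and 770.3 FPKM in CH12F3 (-0.50), and the delta subunit Atp5d at 417 FPKM in the library labelled Lig4-/- and 759 FPKM in CH12F3 (-0.86, GC-adjusted -0.48). The gamma subunit Atp5c1, at 303 FPKM in the library labelled Lig4-/- and 298 FPKM in CH12F3, and the epsilon subunit Atp5e, at 1126 FPKM in the library labelled Lig4-/- and 1181 FPKM in CH12F3, were nearly level (0.02 and -0.07, GC-adjusted -0.10 and -0.25).

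The peripheral stalk divided evenly. Atp5j, the coupling subunit of the stalk, was at 294 FPKM in the library labelled Lig4-/- and 166 FPKM in CH12F3 (0.82, GC-adjusted 0.72), and Atp5f1, its b subunit, at 264 FPKM in the library labelled Lig4-/- and 168 FPKM in CH12F3 (0.65, GC-adjusted -0.89). Atp5o, which joins the stalk to the head, was at 665 FPKM in the library labelled Lig4-/- and 994 FPKM in CH12F3 (-0.58, GC-adjusted -1.05), and Atp5h, its d subunit, at 560.4 FPKM in the library labelled Lig4-/- and 784 FPKM in CH12F3 (-0.48, GC-adjusted -0.98). Atp5f1 has the lowest transcript GC content of all expressed members, at 37.0%. Of the small membrane subunits, which sit where the enzyme forms dimers, Atp5mpl was followed by Atp5k, at 899 FPKM in the library labelled Lig4-/- and 634 FPKM in CH12F3 (0.50, GC-adjusted 0.79), and Atp5j2, at 361 FPKM in the library labelled Lig4-/- and 310.3 FPKM in CH12F3 (0.22). Atp5s, a coupling factor and not a stable subunit, was the least abundant, at 8.38 FPKM in the library labelled Lig4-/- and 8.26 FPKM in CH12F3 (0.02, GC-adjusted -1.28).

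Promoter sequence was available for 76 of the 93 members, as RefSeq windows of 250 bases before to 50 after the start on GRCm38.p6. They were searched on both strands for the core letters of 3 motifs of factors known for respiratory genes, GCGCATG for NRF1, CCGGAAG for ETS factors such as GABP, and AAGATGG for YY1, where GCGCATG and its reverse overlap in the full palindromic site. NRF1 letters were found at 15 of the 76 (19.7%), against 4.41% of the 27025 genes with a window and 8.51% of the expressed genes with one. ETS letters were found at 18 (23.7%), against 9.93% of all and 22.3% of expressed genes, and YY1 letters at 12 (15.8%), against 7.28% and 9.13%. Members with and without NRF1 letters had median log2 ratios of -0.29 (15 genes) and -0.08 (58 expressed genes). For ETS letters these medians were -0.07 (18 genes) and -0.09 (55 genes), and for YY1 letters -0.16 (12 genes) and -0.08 (61 genes). A match describes letters in a window and not the binding of a factor. The 120 bases before the start are shown for members on either side of 0, picked with their values known. They are given 5′ to 3′ on the strand of the gene, with the motif letters in capitals.
Atp5g2, chr15:102671048-102671167, minus strand, NRF1 letters: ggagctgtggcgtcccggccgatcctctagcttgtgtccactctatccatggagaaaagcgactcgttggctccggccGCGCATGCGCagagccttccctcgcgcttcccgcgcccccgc
Ndufaf4, chr4:24897963-24898082, plus strand, NRF1 letters: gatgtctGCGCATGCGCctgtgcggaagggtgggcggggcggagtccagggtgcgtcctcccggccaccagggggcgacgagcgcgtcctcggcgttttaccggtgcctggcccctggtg
Sdhb, chr4:140961151-140961270, plus strand, NRF1 letters: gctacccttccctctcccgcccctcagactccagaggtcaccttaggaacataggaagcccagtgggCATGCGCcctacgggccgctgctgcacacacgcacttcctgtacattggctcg
Sdhd, chr9:50603850-50603969, minus strand, ETS letters: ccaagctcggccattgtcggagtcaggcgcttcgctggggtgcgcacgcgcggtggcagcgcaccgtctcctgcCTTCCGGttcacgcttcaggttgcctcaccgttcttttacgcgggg

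In Atp5g2 the full palindrome stood 42 bases before the start, and in Ndufaf4 113 bases before it. Their log2 ratios were -1.06 and 1.38, and -0.60 and 0.03 after GC adjustment. The value of Atp5g2 is uncertain because of its copy Gm10175. Any link between the letters and the ratios was not tested. Sdhb, with NRF1 letters on the reverse strand 53 bases before its start, had a log2 ratio of -0.75, and Sdhd, with ETS letters on the reverse strand 46 bases before its start, 0.38. Past the bases shown but within the searched window, Sdhb also had ETS letters 6 bases after its start. Ndufaf4 had further NRF1 letters there, 1 base after its start.

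Of 18 listed regulators of respiratory genes 16 were expressed, and 4 of these stood 2-fold or more above CH12F3 and none below it, a share near the 21.0% of all expressed genes that stood above. After GC adjustment 2 of the 16 stood above, beside 5.75% of all expressed genes, and the median was 0.04. Tfb2m, a mitochondrial transcription factor, was at 6.41 FPKM in the library labelled Lig4-/- and 0.93 FPKM in CH12F3 (1.94, GC-adjusted 0.88), and Gabpa, the DNA-binding subunit of GABP, at 10.6 FPKM in the library labelled Lig4-/- and 2.19 FPKM in CH12F3 (1.87, GC-adjusted 0.68). Yy1 was at 24.4 FPKM in the library labelled Lig4-/- and 10.3 FPKM in CH12F3 (1.17, GC-adjusted 1.10), and Tfam, which packages mitochondrial DNA, at 50.2 FPKM in the library labelled Lig4-/- and 22.7 FPKM in CH12F3 (1.11, GC-adjusted 0.37). Nrf1 was level before GC adjustment, at 21.4 FPKM in the library labelled Lig4-/- and 21.9 FPKM in CH12F3 (-0.03, GC-adjusted -0.71). The lowest were Taco1, at 18.3 FPKM in the library labelled Lig4-/- and 24.1 FPKM in CH12F3 (-0.38), and the mitochondrial RNA polymerase Polrmt, at 19.3 FPKM in the library labelled Lig4-/- and 24.9 FPKM in CH12F3 (-0.35). Ppargc1a, the coactivator of mitochondrial biogenesis in muscle and brown fat, was listed at 0 in both.

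**Figure D5:**
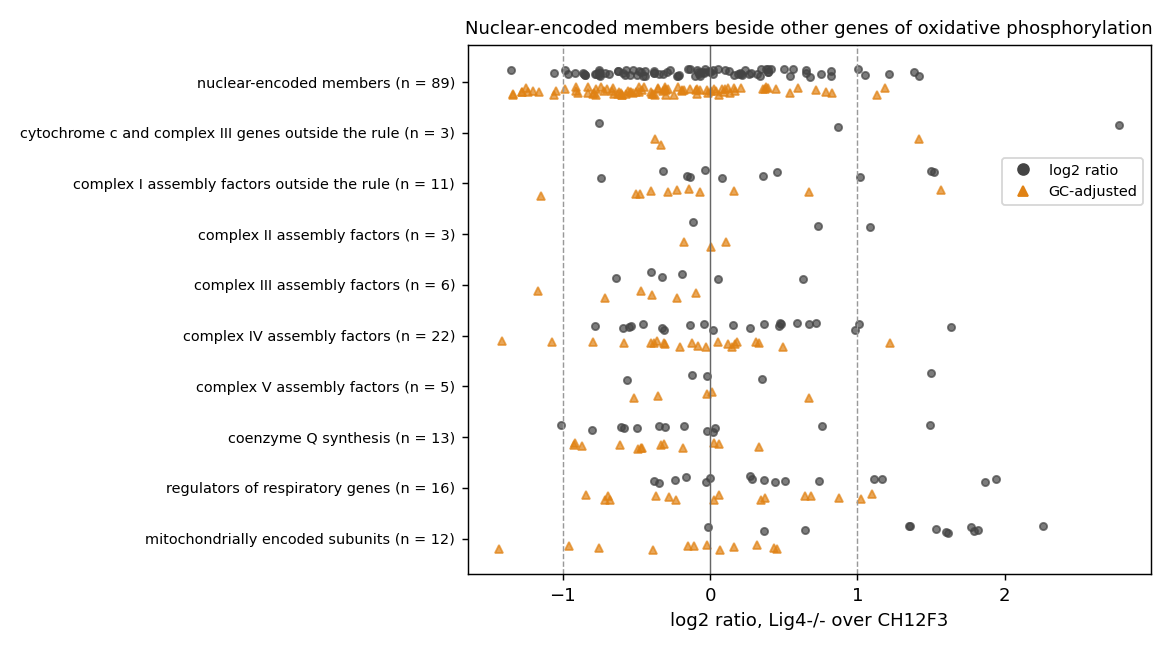
Log2 ratio (circles) and GC-adjusted log2 ratio (triangles) of the library labelled Lig4-/- over CH12F3 for the 89 nuclear-encoded members and for expressed genes of 9 other lists, without genes listed at 0 in a library. The mitochondrially encoded subunits lie furthest right before adjustment and around 0 after it.

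The carriers between the complexes and the synthesis of ubiquinone were given beside the members. Hccs, which attaches haem to cytochrome c, was at 16.8 FPKM in the library labelled Lig4-/- and 1.60 FPKM in CH12F3 (2.78, GC-adjusted 1.42), and cytochrome c itself (Cycs) at 60.1 FPKM in the library labelled Lig4-/- and 32.5 FPKM in CH12F3 (0.87, GC-adjusted -0.37). Cyc1, the cytochrome c1 of complex III, was at 234 FPKM in the library labelled Lig4-/- and 395 FPKM in CH12F3 (-0.76, GC-adjusted -0.33). Before adjustment Uqcrc1 and Uqcrc2 also lay below 0, and the 6 other members of complex III lay above it. Of 13 genes of ubiquinone synthesis, 9 lay below 0 (median -0.31), with 1 past 2-fold on the higher side and 1 on the lower, beside 21.0% and 4.09% of all expressed genes. After GC adjustment 0 were past 2-fold on either side, beside 5.75% of all expressed genes on the higher and 5.98% on the lower. They ran from Coq6, a hydroxylase of the pathway, at 15.6 FPKM in the library labelled Lig4-/- and 32.5 FPKM in CH12F3 (-1.01), and Coq8b (-0.80), to Pdss1 (0.76) and Coq10b, at 8.71 FPKM in the library labelled Lig4-/- and 2.45 FPKM in CH12F3 (1.49, GC-adjusted 0.33).

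Assembly factors of the other complexes gave no common direction. For complex IV 23 were expressed, 2 past 2-fold on the higher side and 1 on the lower (median 0.16), beside 21.0% and 4.09% of all expressed genes. After GC adjustment these counts were 1 and 3, beside 5.75% and 5.98% of all expressed genes. Coa6, at 20.2 FPKM in the library labelled Lig4-/- and 5.81 FPKM in CH12F3 (1.64, GC-adjusted 1.22), and Coa5 (1.01, GC-adjusted 0.33) were the highest, Coa7 was at 23.3 FPKM in the library labelled Lig4-/- and 40.9 FPKM in CH12F3 (-0.78), and Pet117 was listed at 0 in the library labelled Lig4-/- and at 3.30 FPKM in CH12F3. For complex I 11 factors outside the Nduf name were expressed, with a median of 0.08. They ran from Ecsit (-0.74) and Foxred1 (-0.32) to Lyrm2 (1.52), and 3 stood past 2-fold, all on the higher side, a share near the 21.0% of all expressed genes. After GC adjustment 1 stood past 2-fold on each side, beside 5.75% of all expressed genes on the higher and 5.98% on the lower. Tmem70, among these, was at 34.3 FPKM in the library labelled Lig4-/- and 11.5 FPKM in CH12F3 (GC-adjusted 0.67). Tmem70 serves complex V as well, where it was the 1 of 5 listed factors past 2-fold (median -0.02), followed by Atpaf1 (0.35), with Atpaf2 at -0.12. Lowest was Atpif1, the inhibitor of ATP hydrolysis by complex V, at 407 FPKM in the library labelled Lig4-/- and 603 FPKM in CH12F3 (-0.57). For complex II the 3 expressed factors were Sdhaf2 (1.09, GC-adjusted 0.004), Sdhaf4 (0.73, GC-adjusted 0.11) and Sdhaf1 (-0.12, GC-adjusted -0.18). The 6 of complex III all lay within 2-fold, from Uqcc2 (-0.64) and Bcs1l (-0.40) to Ttc19 (0.06) and Lyrm7 (0.63).

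The 13 mitochondrially encoded subunits, which complete complexes I, III, IV and V, had a median log2 ratio of 1.60, against -0.09 for their nuclear-encoded partners, and 10 of them stood 2-fold or more above CH12F3, beside 21.0% of all expressed genes. After GC adjustment these were 1, mt-Atp6, above and 1, mt-Co2, below, beside 5.75% and 5.98% of all expressed genes. The lowest were mt-Co2, at 735 FPKM in the library labelled Lig4-/- and 740.3 FPKM in CH12F3 (-0.01), and mt-Co1, at 2359 FPKM in the library labelled Lig4-/- and 1834 FPKM in CH12F3 (0.36). The highest with a value in both was mt-Nd3, at 2513 FPKM in the library labelled Lig4-/- and 524 FPKM in CH12F3 (2.26). By contrast, mt-Atp6 was listed at 1557 FPKM in the library labelled Lig4-/- and at 0 in CH12F3. The other ATP synthase subunit of this list, mt-Atp8, was at 4142 FPKM in the library labelled Lig4-/- and 1214 FPKM in CH12F3 (1.77, GC-adjusted -0.11). The cause of the 0 for mt-Atp6, a value of 1 library, was not tested. Their transcripts hold 31.9% to 41.1% G and C, and after GC adjustment the medians were -0.02 for the mitochondrial and -0.37 for the nuclear subunits. The difference was not tested, since genes of 2 libraries are not replicates.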

How the data were processed

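Per the labels' protocols, libraries were made with an Illumina TruSeq RNA kit from Trizol-extracted total RNA. The authors deposited 1 table of FPKM values, with 53873 features. CASAVA and TopHat appear in the submitters' processing notes with no version. These also name GRCh38, a human build, whereas 51912 of the identifiers are mouse Ensembl ones, so the build behind the values is uncertain. Which program made the FPKM, with what annotation, strand setting and multiple-mapping rule, the sources used here do not say. Depth is unknown, so no counting interval is given.

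Symbols, types, coordinates and transcripts came from GENCODE M21 (GRCm38). One identifier per symbol was kept, by the highest mean FPKM, leaving 51840 genes. Expressed meant a mean of at least 1 FPKM, and the pseudocount was 1 FPKM, so log2 ratios understate differences of low genes. The GC curve was lowess (statsmodels 0.14.6, fraction 0.3) on the longest transcript. Copies were sought with BLAST 2.17.0 among the longest transcript of each gene. The adjustment was tried on simulated data with known folds and a built-in slope on the same GC content. Such a trial cannot show whether the adjustment suits these libraries. Promoters came from RefSeq tables, matched by symbol or synonym, any window of a gene counting.

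With 1 library a line no test was run. The members, though defined by symbol, and the other lists were chosen with earlier results of these data known. Named are members at least 2-fold apart, the 3 highest and lowest and 2 most abundant of each complex, isoform families, and the 2 highest and lowest of each list, while other members serve as examples picked with their values known. Alternatives covered pseudocount, filter, scaling, GC content, length, members and copies. The values of 1 member are not reported here, although it is included in counts and medians.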

Additional observations from a re-analysis of the deposited data

How the results depend on the processing

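No paired analysis was possible because each line had 1 library. A median is called moved when it shifted by more than 0.1 on the log2 scale and a count when it changed by more than 1.5 times. The coding GC adjustment and the minimum mean of 100 FPKM were chosen after seeing the data. Depth limits the least abundant members most, and it is unknown.

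The members at least 2-fold higher (5) became 3 with a pseudocount of 5 FPKM, with the overall median set to 0, with upper quartile scaling, for structural subunits only, without members that have a copy, and at a mean of at least 100 FPKM. They became 2 with either GC adjustment and 0 with the GC content of the coding sequence or a 4-fold threshold. Of all expressed genes 21.0% stood 2-fold or more above before these changes. This share was 9.65% with a pseudocount of 5 FPKM, 16.4% with the median set to 0 and 19.7% with upper quartile scaling. It was 5.75% with GC adjustment, 5.36% with GC and length, and 7.38% with coding GC. At a mean of at least 100 FPKM it was 7.10%. The members at least 2-fold lower (2) became 4 with a pseudocount of 0.1 FPKM and with upper quartile scaling. They became 9 with the median set to 0, 10 with GC adjustment, 8 with GC and length, and 7 with coding GC. They became 1 with a pseudocount of 5 FPKM, the same FPKM total, structural subunits only or no copies. They were also 1 at a mean of at least 100 FPKM, and 0 at 4-fold. Of all expressed genes 4.09% stood 2-fold or more below before these changes. This share was 5.49% and 2.20% with pseudocounts of 0.1 and 5 FPKM, 4.78% with upper quartile scaling and 3.31% with the same FPKM total. It was 6.79% with the median set to 0, 5.98% with GC adjustment, 5.95% with GC and length, and 4.93% with coding GC. At a mean of at least 100 FPKM it was 6.86%.

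The members' median (-0.09) was -0.26 with the median of all genes set to 0, a shift of 0.17 for every gene, and -0.37, -0.27 and -0.36 with GC, GC and length, and coding GC adjustment. It stayed below 0 under each of these alternatives, at its closest -0.0032 with the same FPKM total.

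With the overall median set to 0, complexes I to V had medians of -0.35, -0.28, 0.0066, -0.37 and -0.24. GC adjustment gave -0.39, -0.24 and -0.36 for complexes I, II and V and turned complex III to -0.13. GC and length gave -0.30 for complex I and -0.25 for complex V and turned complex III to -0.019. Coding GC gave -0.39 for complex I, 0.041 for complex III and -0.58 for complex V. The same FPKM total turned complex V to 0.016. Complex IV was at -0.017 with no expression filter, -0.037 for structural subunits only, -0.040 at a mean of at least 100 FPKM and -0.35 without members that have a copy, and complex II at -0.59 at a mean of at least 100 FPKM. Adding copies moved the Atp5g2 share of the c-ring genes to 33.0% in the library labelled Lig4-/- and 58.1% in CH12F3. The ratio of summed FPKM stayed between 0.841 and 0.927. The cause of these shifts was not tested.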
